A study of Mus musculus with 79 samples.

Results

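Ribosome-bound mRNA of neurons that use the dopamine D1 receptor promoter was compared with that of neurons that use the D2 receptor promoter in the ventral striatum of the mouse, where the nucleus accumbens was punched from brain slices. The comparison took every library whose labels give ventral striatum, 15 for D1 and 14 for D2, which are 29 of the 79 libraries of the series. All genes of the deposited table entered it. The other libraries came from dorsal striatum and from prefrontal cortex, and only the dorsal ones are used below, 15 for D1 and 16 for D2.

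The mice were BAC transgenic lines, which carry a large genomic fragment as a transgene. In the D1 group the D1a receptor promoter, and in the D2 group the D2 receptor promoter, drove the ribosomal protein L10a fused to eGFP, so that tagged ribosomes could be pulled down with an antibody to GFP (bacTRAP). Both lines were kept as heterozygotes with C57BL/6J as the background strain, and the labels name no drug or other treatment. Ages are not given in the sources used here. Tissue of 3 mice of both sexes was pooled for each library, with 2 males in 9 of the D1 pools and 8 of the D2 pools and 1 male in the other 6 of each. D1 and D2 libraries thus come from different lines, and a difference between the lines or their transgenes cannot be told apart from one between the receptor types. Nothing says whether pools were handled on separate days, so p-values measure the spread between these pools.

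The striatum is built mostly of projection neurons that release GABA. Those with the D1 receptor, which raises cyclic AMP, send axons straight to the midbrain and carry dynorphin and substance P, and those with the D2 receptor, which lowers cyclic AMP, project mainly to the pallidum and carry enkephalin. The nucleus accumbens is the limbic part of the striatum and is known for its role in reward and motivation. D2 receptor promoter activity is not limited to projection neurons, since cholinergic interneurons also use it.

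The targeted genes separated the groups. Drd1a, the older symbol of the D1 receptor gene Drd1 that the table uses, had 139 CPM in the lowest D1 library, 156 at the median and 173 in the highest, against 8.23, 15.1 and 29.1 CPM in D2. CPM are reads scaled by the authors to a common total for each library. Drd2, the D2 receptor gene, had 337, 625 and 1184 CPM in D2 against 6.31, 7.98 and 16.2 in D1. Neither gene overlapped between groups. The differences were 3.29 ± 0.14 (standard error) for Drd1a and -6.07 ± 0.16 for Drd2 on the log2(CPM + 0.5) scale, D1 minus D2, as are all log2 differences below. Rpl10a, the gene of the tagged protein, had medians of 144 and 176 CPM and was not called different (limma adjusted p = 0.095), although it was lower in D1 with an adjusted p of 0.049 when the 19 libraries of the largest name code alone were used.

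**Figure D1:**
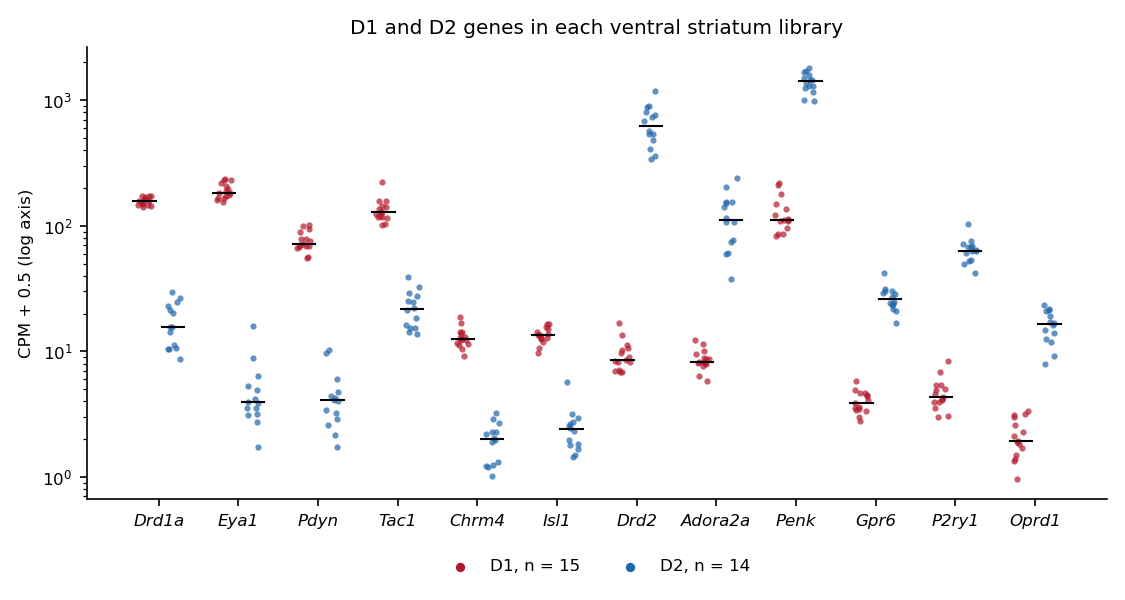
CPM plus 0.5 of 12 genes in each ventral striatum library on a log axis; each point is a library (D1 red, n = 15; D2 blue, n = 14) and the bar is the median of the group. The D1 and D2 points of each of these genes do not overlap.

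Genes on 1 side of each receptor gene differed in the same direction as that receptor gene. Sfxn1, a mitochondrial serine transporter gene, lies next to Drd1 in RefSeq's GRCm38.p6 gene order and had 92.7 to 168 CPM in D1 against 12.3 to 26.6 in D2 (log2 difference 2.76 ± 0.11). Hrh2, the histamine H2 receptor gene and the next one along, had medians of 1.40 and 1.02 CPM and was not called (log2 difference 0.28, limma adjusted p = 0.13). Beyond Drd2 lie Ankk1 and Ttc12. Ankk1 had 5.49 to 15.7 CPM in D2 and at most 0.234 in D1, and Ttc12 had 55.7 to 119.87 CPM in D2 and at most 0.36 in D1. Their log2 differences were -4.12 ± 0.14 and -7.05 ± 0.13. Drd2 neighbours on the other side, Gm4894 and Tmprss5, averaged 0.0781 and 0.0587 CPM in D2 and were too low to test, as was Msx2 on the other side of Drd1 (0.00793 CPM in D1 and 0.0190 in D2). Whether the transgene carries any of these neighbours is not stated in the sources used here.

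The share of reads that fell in listed genes differed between the groups, and it sets the scale of every CPM value. The share was 32.8% in the lowest D1 library, 34.7% at the median and 37.5% in the highest, against 34.7%, 38.2% and 39.8% in D2. All but 2 of the D2 libraries lay above every D1 library. The D1 mean was 35.1% ± 1.64 (SD over 15 libraries). The D2 mean was 38.0% ± 1.505 (SD over 14 libraries), which puts D1 lower by 2.87 points (difference -2.87, two-sided permutation test, p = 1e-04). Library names begin with 1 of 4 letter codes of unstated meaning, taken as a possible batch: EM heads 11 D1 and 8 D2 names, OdP 1 and 5, BdP 2 and 1, JAG 1 and none. Within EM the difference was -3.31 points (exact permutation test, p = 0.00082), and among the other libraries, 4 against 6, it was -1.21 points (exact permutation test, p = 0.0095). Reads in genes ran from 10.5 M to 23.0 M per D1 library and from 15.7 M to 30.8 M per D2 library, and the D1 libraries were also shallower at the median (16.5 M against 21.8 M). D2 replicate 2 stood apart by its cortical genes, with 29.6 CPM of Slc17a7 where no other D2 library passed 9.29.

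Of 11410 genes tested, 5443 were called different at a limma adjusted p under 0.05 (47.7%), 2751 higher in D1 (24.1%) and 2692 lower (23.6%). Most of these differences were small: 413 genes were called and at least 2-fold apart (3.62%), 235 higher and 178 lower, a split that became 332 and 132 after rescaling to reads in genes and 264 and 317 by edgeR. Calls were then followed through 6 other treatments of the same libraries: values rescaled to reads in genes, median-ratio scaling, that share entered as a covariate, EM libraries alone, D2 replicate 2 left out, and edgeR on whole reads. A gene is said to hold when it was called with the same sign in all 6. The number that hold was 979 (8.58%), with 456 higher in D1 (4.0%) and 523 lower (4.58%). Groups did not overlap at all in 153 genes (1.34%), 69 higher and 84 lower in D1, and all of these hold.

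The covariate decided most of the losses. With the share as a covariate 1218 genes were called, and the median standard error over genes rose from 0.133 to 0.171. Without that alternative 3464 genes would hold in the other 5 (30.4%). Large differences were kept more often than small ones: 311 of the 413 genes at least 2-fold apart hold, against 668 of the 5030 called genes with smaller differences. Rescaling to reads in genes moved the median of all genes from 0.02 to 0.13 and the calls to 3702 higher and 1898 lower, while EM libraries alone gave 1867 higher and 2724 lower (162 and 240 at least 2-fold). The balance of higher and lower genes over the whole table therefore depends on the scaling and on the libraries taken, and the counts below are given for holding genes beside called ones.

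**Figure D2:**
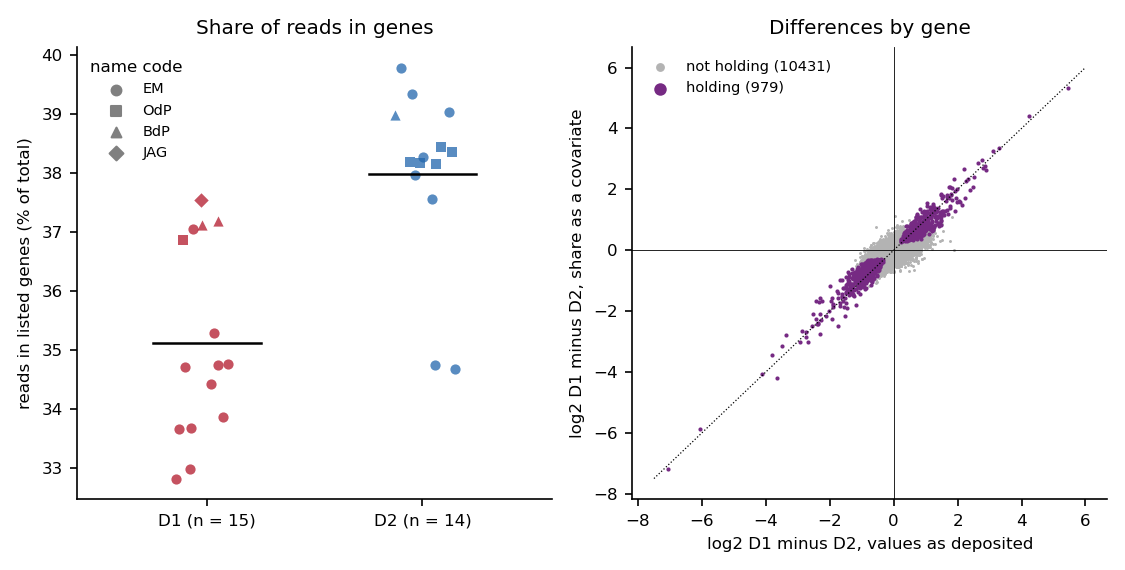
Left, the percentage of reads in listed genes in each library, with the marker shape giving the name code and the bar the group mean (35.1% in D1, 38.0% in D2). Right, the log2 D1 minus D2 difference of each of 11410 genes as deposited against the difference with the share as a covariate, where the 979 holding genes (purple) lie along the dotted line of equality and away from 0.

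Neuropeptide precursors gave some of the largest differences, in both directions. Of 36 listed precursor genes 10 could be tested, 6 were higher and 1 lower in D1, and 3 and 1 of these hold (70% called and 40% holding, beside 47.7% and 8.58% of all genes). The holding genes include Pdyn, Tac1 and Penk, which are also in the lists of D1 and D2 identity genes below. These shares are thus not independent evidence. Pdyn, the dynorphin precursor, had 54.6, 71.0 and 101 CPM in D1 (lowest, median, highest) and 1.24, 3.58 and 9.83 in D2. Tac1, the precursor of substance P, had 101, 128 and 224 CPM in D1 and 13.2, 21.4 and 38.8 in D2. Penk, the enkephalin precursor, went the other way, with 82.8, 112 and 218 CPM in D1 and 985, 1413 and 1818 in D2. None of these 3 overlapped between groups, and the log2 differences were 4.22 ± 0.18, 2.63 ± 0.14 and -3.49 ± 0.13. Penk was thus measurable in every D1 library, at a mean of 128 ± 43.6 CPM (SD, n = 15) against 1397 ± 250 in D2 (SD, n = 14). In a pulldown from bulk tissue, fewer cells of a type and less RNA per cell cannot be told apart, nor can RNA of other cells that stayed on the beads.

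The promoters of the peptide genes and of the receptor genes that drive the tag are shown because these genes carry the contrast, from 250 bases before to 50 after the start (RefSeq, GRCm38.p6, first listed start of each gene). Capitals mark the half-site of the cyclic AMP response element, CGTCA or its complement TGACG, searched on both strands.

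Pdyn, chr2:129699889-129700188, minus strand: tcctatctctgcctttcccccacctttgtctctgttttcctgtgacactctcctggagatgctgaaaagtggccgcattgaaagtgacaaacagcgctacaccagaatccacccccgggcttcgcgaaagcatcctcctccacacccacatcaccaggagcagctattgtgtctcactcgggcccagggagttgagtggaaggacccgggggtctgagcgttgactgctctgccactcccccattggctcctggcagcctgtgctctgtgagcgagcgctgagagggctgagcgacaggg

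Tac1, chr6:7554811-7555110, plus strand: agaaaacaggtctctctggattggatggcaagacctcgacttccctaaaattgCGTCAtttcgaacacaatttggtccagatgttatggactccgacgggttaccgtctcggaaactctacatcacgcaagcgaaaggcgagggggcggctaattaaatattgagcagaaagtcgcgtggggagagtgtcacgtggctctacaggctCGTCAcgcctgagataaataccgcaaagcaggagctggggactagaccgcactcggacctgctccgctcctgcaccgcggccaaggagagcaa

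Drd1, chr13:54055609-54055908, minus strand: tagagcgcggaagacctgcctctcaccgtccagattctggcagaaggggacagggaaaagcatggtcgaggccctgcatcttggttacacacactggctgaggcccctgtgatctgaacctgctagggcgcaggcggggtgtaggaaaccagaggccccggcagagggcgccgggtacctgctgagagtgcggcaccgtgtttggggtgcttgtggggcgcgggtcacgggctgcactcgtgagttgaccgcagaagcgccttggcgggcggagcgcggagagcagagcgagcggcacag

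Drd2, chr9:49340153-49340452, plus strand: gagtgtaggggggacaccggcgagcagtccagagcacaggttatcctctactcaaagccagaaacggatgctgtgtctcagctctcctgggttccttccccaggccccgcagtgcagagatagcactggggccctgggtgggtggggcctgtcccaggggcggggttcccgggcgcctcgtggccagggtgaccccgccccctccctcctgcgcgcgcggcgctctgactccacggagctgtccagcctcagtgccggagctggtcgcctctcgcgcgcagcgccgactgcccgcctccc

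The Tac1 window holds the half-site 2 times, its first bases 197 and 43 before the start, and the windows of Pdyn, Drd1 and Drd2 do not contain these letters. The half-site is common: 20.8% of all 32841 promoters in the table hold it, 29.8% of those matched to holding genes higher in D1, 25.2% of those matched to holding genes lower in D1, and 33.8% over all genes tested. The match describes the letters in the window only. Penk and Adora2a promoters are not shown.

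The fourth holding precursor was Cck, cholecystokinin, at 4.78 to 37.5 CPM in D1 and 3.05 to 25.9 in D2 with a median of 18.6 against 4.69 (log2 difference 1.51 ± 0.25). Cck is also a gene of cortical pyramidal neurons, whose markers moved the same way, as given below, and their part in its difference was not tested. Among 13 tested granins and peptide-processing enzymes 6 were higher and 1 lower, of which 3 and 1 hold (53.8% called and 30.8% holding, beside 47.7% and 8.58% of all genes). Chga and Scg2, granins that pack dense-core vesicles, were higher in D1 by 0.88 ± 0.14 and 0.86 ± 0.11 log2, with 67.4 to 136 CPM of Scg2 in D1 against 39.1 to 69.3 in D2. Pam, which amidates peptides, was higher by 0.35, and Pcsk2, a prohormone convertase, was lower by 0.44 (log2 difference -0.44 ± 0.08).

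Of 19 tested peptide receptors 8 were higher and 6 lower in D1, and 4 and 2 of these hold (73.7% called and 31.6% holding, beside 47.7% and 8.58% of all genes). However, 4 of the 19 reached 1 CPM in only a minority of the libraries of 1 group, beside 390 of all 11410 genes. These shares are thus partly fixed by the filter, and Oprd1, which holds, is also in the D2 identity list. Sstr4 and Sstr2, somatostatin receptors, were higher in D1 by 1.91 ± 0.19 and 1.22 ± 0.17 log2, at levels of only 1.51 to 5.66 CPM and 1.33 to 4.37 CPM in D1. In D2 they had 0 to 1.45 and 0.0491 to 1.47 CPM. Oprd1, the delta opioid receptor through which enkephalin acts, had 7.49 to 23.1 CPM in D2 and 0.472 to 2.88 in D1 (log2 difference -2.94 ± 0.18). Tacr1, the receptor of substance P, had 2.89 to 8.16 CPM in D2 and 1.15 to 2.25 in D1 (log2 difference -1.26 ± 0.14). For both, the D2 libraries lay above every D1 library. So the Tac1 precursor was higher in D1 and its receptor, at low levels, higher in D2. Markers of cholinergic interneurons were also higher in D2, as given below, and their part in the Tacr1 difference was not tested.

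The genes listed as marking D1 and D2 neurons, 10 each, all differed in their listed direction and all hold, but these lists were drawn up from known marker genes with earlier results of these data known and are not independent evidence. Eya1, a transcriptional coactivator, gave the largest D1 difference: 154, 183 and 236 CPM in D1 against 1.24, 3.42 and 15.4 in D2 (log2 difference 5.45 ± 0.19). Slc35d3, a nucleotide sugar transporter, and Isl1, a homeodomain factor of developing D1 neurons, were higher by 3.11 ± 0.21 and 2.53 ± 0.14 without overlap. Adora2a, the adenosine receptor that opposes D2 signalling, had 37.0, 111 and 239 CPM in D2 against 5.29, 7.80 and 11.8 in D1 (log2 difference -3.65 ± 0.19). Gpr6, a receptor with constitutive activity that raises cyclic AMP, had 16.3 to 41.7 CPM in D2 and 2.29 to 5.32 in D1 (-2.73 ± 0.12). Grik3, a kainate receptor subunit, and Sp9, a zinc-finger factor needed for D2 neurons to form, were lower in D1 by 2.10 and 1.68 on the log2 scale, again without overlap. Upb1, an enzyme of pyrimidine breakdown in the D2 list, was lower by 2.69 and did not overlap either.

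Arhgap36, Accn4 and Cplx3 also stood among the 12 largest higher genes. Arhgap36, which antagonises protein kinase A, had 6.80 to 13.2 CPM in D1 and 0.0982 to 2.41 in D2 (log2 difference 2.87 ± 0.19). Accn4, an acid-sensing ion channel subunit, had 5.70 to 15.6 CPM in D1 and 0.495 to 3.23 in D2 (2.40 ± 0.17). Cplx3, a complexin, overlapped: 12 of 15 D1 libraries lay above every D2 library. The other 3 had 1.45 to 2.12 CPM, and the highest D2 value, 2.20 CPM, was that of replicate 2 (0.722 in the next). Replicate 2 also had the highest D2 level of cortical markers. These markers were higher in D1, as given below, and their part in the Cplx3 difference was not tested. P2ry1, an ADP receptor, and Fst, which binds activin, were among the 12 largest lower genes, with 41.8 to 102 CPM against 2.51 to 7.82, and 4.60 to 8.21 against 0.122 to 0.799. Slitrk6, a synaptic adhesion protein, was lower by 2.76 on the log2 scale and did not overlap between groups.

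Adora2a was accompanied by 2 adenosine enzymes, while other adenosine genes differed little or did not hold. Of 24 tested genes of adenosine handling, cannabinoid and orphan receptors, 5 were higher and 8 lower in D1, and 3 and 6 hold (54.2% called and 37.5% holding, beside 47.7% and 8.58% of all genes). The holding genes include Adora2a and Gpr6 of the D2 identity list, so the shares are not independent evidence. Besides Adora2a, Nt5e, the surface enzyme that makes adenosine from AMP, had 8.43, 12.9 and 17.4 CPM in D2 against 0.678, 1.76 and 2.46 in D1. Adk, the kinase that removes adenosine, had 10.5, 13.9 and 31.4 CPM in D2 against 1.75, 2.58 and 3.86 in D1. Neither overlapped, and the log2 differences were -2.55 ± 0.12 and -2.36 ± 0.13. Other adenosine genes of the list, given here after their values were seen, did not hold: Adora1, a receptor that lowers cyclic AMP, averaged 45.4 CPM in D1 and 49.2 in D2 and was not called, nor was the transporter Slc29a1, while Slc29a2 was called higher (0.50 ± 0.17) and Slc29a3 lower (-0.90 ± 0.17). Adk is also known from glia, whose markers are given below, and their part was not tested.

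Among 26 tested receptors for monoamines and acetylcholine, 7 were higher and 7 lower, and 4 and 5 hold (53.8% called and 34.6% holding, beside 47.7% and 8.58% of all genes). The holding genes include Drd1a and Drd2, whose promoters define the groups, and Chrm4 of the D1 identity list. These shares are thus not independent evidence. In addition, 4 of the 26 reached 1 CPM in only a minority of the libraries of 1 group, beside 390 of all 11410 genes. Chrm4, the muscarinic M4 receptor that lowers cyclic AMP, had 8.62, 11.9 and 18.2 CPM in D1 and 0.524, 1.502 and 2.76 in D2 (log2 difference 2.79 ± 0.15). Htr2a, the serotonin 2A receptor, had 9.58 to 23.0 CPM in D2 and 5.47 to 8.65 in D1 (-1.30 ± 0.11). Neither overlapped between groups. Drd3, the dopamine receptor typical of the ventral striatum, also holds, and its values are given here after they were seen: 1.64 to 4.89 CPM in D1 and 0.177 to 2.27 in D2 (log2 difference 1.25 ± 0.16).

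Of 39 tested G protein and RGS genes, which signal downstream of these receptors, 14 were higher and 14 lower, and 5 and 3 hold (71.8% called and 20.5% holding, beside 47.7% and 8.58% of all genes). A beta and 2 gamma subunits were higher in D1: Gnb4 (38.8 to 62.6 CPM against 6.94 to 17.6, log2 difference 1.79 ± 0.10), Gng4 (1.54 ± 0.18) and Gng2 (1.04 ± 0.17). Rgs7bp, which anchors RGS proteins at the membrane, was lower by 0.99 on the log2 scale. Of 46 genes of cyclic nucleotide and DARPP-32 signalling 17 were higher and 14 lower, and 7 and 5 hold (67.4% called and 26.1% holding). Pde1a, a calcium-dependent phosphodiesterase, had 144 to 226 CPM in D1 and 45.3 to 124 in D2 (1.23 ± 0.10), and Pkib, an inhibitor of protein kinase A, was higher by 1.56 ± 0.17. Gucy1a3, a subunit of the nitric oxide receptor guanylyl cyclase, had 280 to 821 CPM in D2 and 96.4 to 178 in D1 (-1.93 ± 0.14), and Arpp19, a phosphatase inhibitor, was lower in D1 by 1.18 (log2 difference -1.18 ± 0.10). Ppp1r1b, which encodes DARPP-32 itself, was higher by 0.67 ± 0.12 as deposited but did not hold: with the share as a covariate its difference was 0.28 (limma adjusted p = 0.19).

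Of 52 tested genes of diacylglycerol and calcium signalling 20 were higher and 13 lower, and 9 and 3 hold (23.1% beside 8.58% of all genes), with a median log2 difference of 0.13 beside 0.02 over all genes. Dgkz, a diacylglycerol kinase, was higher by 1.27 ± 0.14 and Itpka, an inositol trisphosphate kinase, by 1.03 ± 0.15. A diacylglycerol kinase of another class, Dgkk, went the other way with 13.8 to 75.5 CPM in D2 against 5.01 to 18.8 in D1 (-1.40 ± 0.20), as did the calcium-dependent kinase Camk4 (-0.92 ± 0.14). Of 30 calcium sensors and buffers 9 were higher and 7 lower, and 2 and 4 hold (53.3% called and 20% holding, beside 47.7% and 8.58% of all genes). Hpcal1 and Cabp1, which sense calcium, were higher by 1.48 ± 0.19 and 1.37 ± 0.19, while Necab1, a calcium-binding protein, had 101 to 222 CPM in D2 and 52.2 to 83.8 in D1 without overlap (-1.37 ± 0.10).

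Ion channels and transmitter receptors held at shares of 7.69% (GABA and glycine), 10.0% (glutamate), 10.3% (potassium) and 15.4% (sodium and calcium), beside 8.58% of all genes. Potassium channels numbered 58 tested, 15 higher and 15 lower, with 3 and 3 holding. Kcnj9, a G protein-gated channel, was higher by 1.05 ± 0.18, and Kcnk2 and Kcna2, a background and a voltage-gated channel, were lower by 1.07 and 0.85 log2. Kcnj10 was lower by 1.18, at 0.772 to 3.98 CPM in D1 and 2.41 to 9.51 in D2, and is known as a channel of glia. Of 26 sodium and calcium channel genes 5 were higher and 13 lower, a median of -0.29 as deposited, -0.18 rescaled and -0.03 with the covariate, and 2 and 2 hold. Among the holding genes the calcium channel accessory subunit Cacnb3 was higher (0.60 ± 0.12) and the accessory subunits Cacnb2 (-0.68 ± 0.09) and Cacna2d2 (-0.60 ± 0.09) were lower.

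Of 50 glutamate receptor genes and their accessory proteins 11 were higher and 19 lower, and 2 and 3 hold. Neto2, an accessory protein of kainate receptors, had 30.8 to 109 CPM in D2 and 14.5 to 42.3 in D1 (log2 difference -1.43 ± 0.18), in the same direction as Grik3. Cacng2, which brings AMPA receptors to the synapse, was lower by 0.59 and Shisa6, another AMPA receptor partner, higher by 0.57. Among 26 genes of GABA and glycine transmission 3 were higher and 8 lower, and only Gabrb1 (0.62 ± 0.12) and Gabrg3 (-1.31 ± 0.18), both GABA-A receptor subunits, hold. Gabrb1 overlaps Gabra4 in the annotation, and counting by strand is not stated, so its reads may be shared with that gene.

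Vesicle release genes that hold were mostly higher in D1. Of 84 tested genes 26 were higher and 20 lower as deposited, but 11 and 1 hold, a share of 13.1% higher beside the 4.0% of all genes. Among the 11 were Cplx3, Stx1a, Stx4a, Syt5, Syt7, Syt9, Sv2c, Rab3b, Unc13a and Ppfia4, which include syntaxins and synaptotagmins, the membrane anchors and calcium sensors of vesicle fusion. This listing was made after the values were seen. Syt7 had 28.1 to 57.4 CPM in D1 and 9.73 to 29.7 in D2 (log2 difference 1.00 ± 0.13), and Stx1a had 8.49 to 19.4 against 2.91 to 14.2 (1.12 ± 0.16). Markers of cortical glutamatergic neurons, which also use this machinery, were higher in D1 too, with summed levels of 18.2 to 115 CPM against 3.92 to 84.7, and D2 replicate 2 had the highest D2 value of Stx1a (14.2 CPM, 9.74 in the next). Their part was not tested. The one lower gene was Vamp3, a fusion protein of endosomes (-1.04 ± 0.13). Of 64 tested tubulins, kinesins and their partners 25 were higher and 11 lower, and 7 and 0 hold. The holding share was 10.9% beside 8.58% of all genes, all of it on the higher side, where that of all genes was 4.0%. Stmn2, a regulator of microtubule growth, was higher by 1.27 ± 0.16, and Klc1, a kinesin light chain, had 139 to 231 CPM in D1 against 86.8 to 161 in D2 (0.73 ± 0.10).

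**Figure D3:**
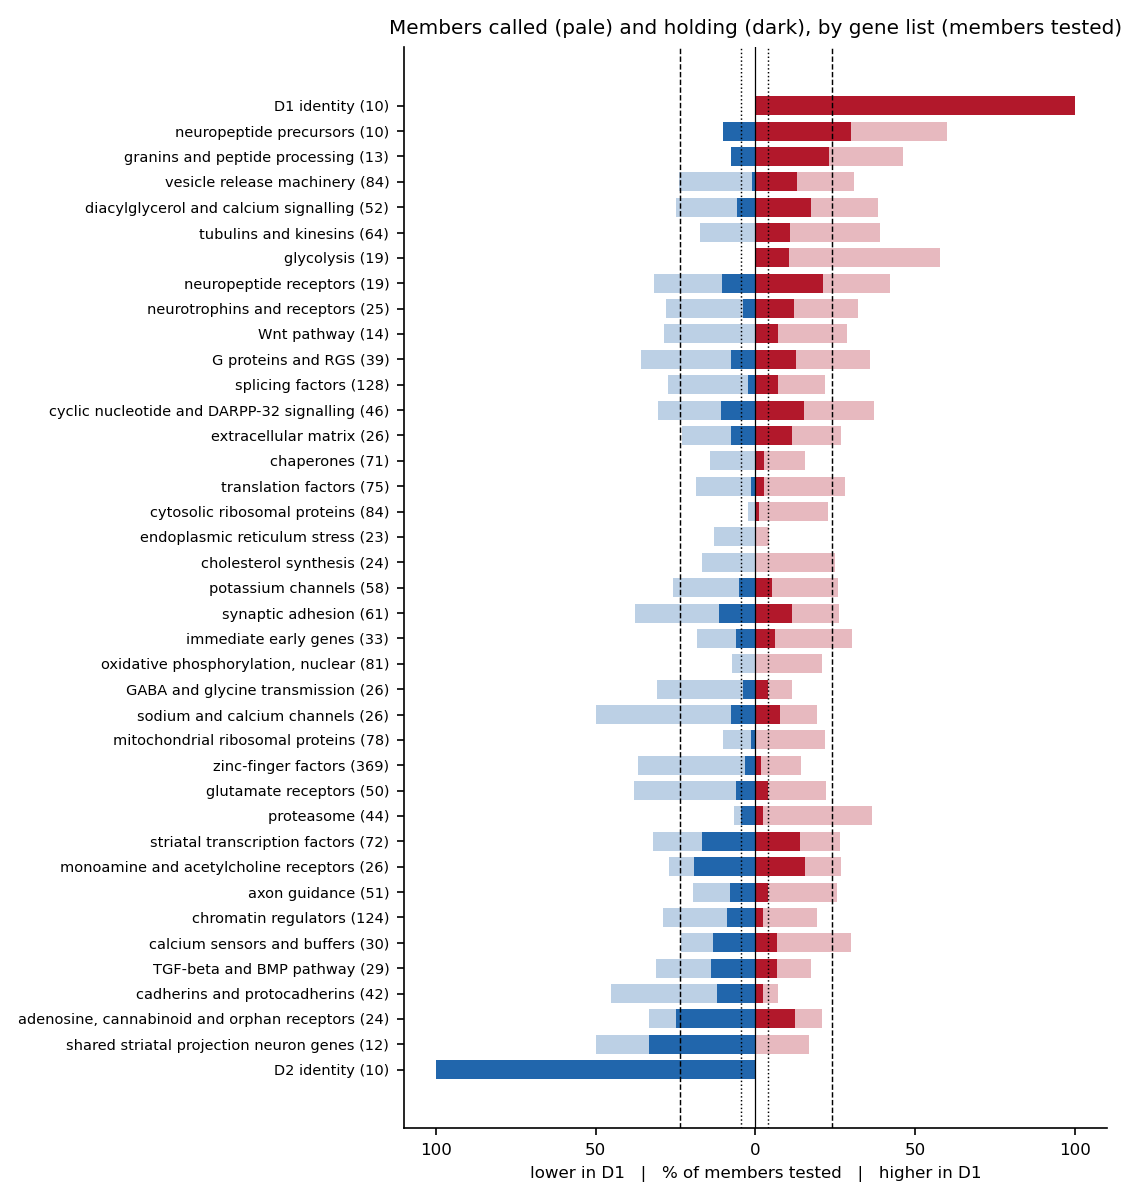
Percentage of the tested members of each gene list (number tested in brackets) that were called higher in D1 (right, red) or lower (left, blue); pale bars are calls and dark bars holding genes. Dashed lines mark the called share over all genes (24.1% and 23.6%) and dotted lines the holding share (4.0% and 4.58%); vesicle release and microtubule genes hold on the right and cadherins on the left.

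Of 42 cadherins and protocadherins 3 were higher and 19 lower, and 1 and 5 hold (14.3% beside 8.58% of all genes). Their median difference was -0.19 as deposited, -0.10 rescaled, -0.06 with the covariate, -0.32 in EM libraries and -0.40 by edgeR, beside 0.02, 0.13, 0.03, -0.05 and -0.01 over all genes. Cdh11 had 16.6 to 41.8 CPM in D2 and 8.55 to 20.0 in D1 (-0.99 ± 0.13), and Cdh4 went the other way (1.01 ± 0.18). Pcdhb9 and Pcdhb16 were lower by 1.31 and 1.02, but they belong to a cluster of similar genes and overlap other annotated genes, so their reads may be divided uncertainly. Of 51 axon guidance genes 13 were higher and 10 lower, and 2 and 4 hold (11.8%). Unc5d, a netrin receptor, had 10.8 to 34.5 CPM in D2 and 3.06 to 8.66 in D1 (-1.75 ± 0.13), its relative Unc5c was lower by 0.91, and the secreted semaphorins Sema3e and Sema3a were lower by 1.16 and 1.15. Of 61 synaptic adhesion genes 16 were higher and 23 lower, and 7 and 7 hold (63.9% called and 23% holding, beside 47.7% and 8.58% of all genes). Of the 61, 5 reached 1 CPM in only a minority of the libraries of 1 group, beside 390 of all 11410 genes. These shares are thus partly fixed by the filter. Cntnap3, of the neurexin superfamily, had 4.16 to 7.46 CPM in D1 and 0.198 to 1.58 in D2 (2.32 ± 0.15), and Lingo2 and Ntng2 were higher by 1.77 ± 0.20 and 1.29 ± 0.19.

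Among growth factor systems 16% of the neurotrophic genes, 20.7% of the TGF-beta and BMP genes and 7.14% of the Wnt genes hold, beside 8.58% of all genes. Gfra1, a receptor of GDNF, had 7.35, 10.3 and 19.0 CPM in D1 against 0.742, 1.92 and 3.99 in D2 (log2 difference 2.28 ± 0.15). The neuregulin Nrg3 and its receptor Erbb4 were both higher in D1, by 1.23 ± 0.15 and 0.72 ± 0.16. Fgfr2, which glia also express, was lower by 1.61. These were the 3 higher and 1 lower holding genes among 25 neurotrophic factors and receptors, of which 8 were called higher and 7 lower. Of 29 genes of the TGF-beta and BMP pathway 5 were higher and 9 lower, and 2 and 4 hold. Inhba, an activin subunit, was higher by 0.82 ± 0.19, while Fst, which binds activin, and Acvr2a, an activin receptor, were lower (-2.86 ± 0.11 and -0.86 ± 0.13). Of 14 Wnt pathway genes 4 were higher and 4 lower, and only Tcf7l2, a transcription factor of the pathway, holds (1.28 ± 0.24). Of 26 tested extracellular matrix genes 7 were higher and 6 lower, and 3 and 2 hold (50% called and 19.2% holding, beside 47.7% and 8.58% of all genes). Among the holding genes were Reln, which encodes reelin, higher by 0.72 ± 0.15, and Spock3, a matrix proteoglycan, lower by 1.19.

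Among 72 tested transcription factors of the striatum 19 were called higher and 23 lower, and 10 and 12 hold, which is 30.6% beside 8.58% of all genes. The holding genes include identity genes such as Ebf1, so this share is not independent evidence. Ebf1, which shapes D1 neurons in development, had 6.53 to 20.7 CPM in D1 and 0.970 to 4.26 in D2 (2.21 ± 0.16), and Zfp521 was higher by 1.00 ± 0.14. Nr4a2 had 5.48 to 37.3 CPM in D1 and 0.448 to 17.5 in D2 with overlap (1.98 ± 0.32), and cortical neurons also express it. The forkhead factors of the striatum differed in direction: Foxp1 had 324 to 784 CPM in D2 against 191 to 319 in D1 (-1.09 ± 0.11), and Foxp2, named after its values were seen, averaged 128 CPM in D1 and 63.8 in D2 (1.03 ± 0.11). Sox2, a factor of progenitors and glia, had 5.73 to 20.7 CPM in D2 and 1.21 to 2.81 in D1 (-1.89 ± 0.14).

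Of 12 genes shared by both kinds of projection neuron 2 were higher and 6 lower, and 4 of the lower ones hold (66.7% called and 33.3% holding, beside 47.7% and 8.58% of all genes). Meis2, a homeodomain factor, had 289 to 518 CPM in D2 and 203 to 323 in D1 (-0.72 ± 0.09). Rarb, a retinoic acid receptor, was lower by 0.34, and Foxp1 is also among the 4. Gad1 and Gad2, which make GABA, were not called (log2 differences -0.19 and -0.05), and neither were Adcy5, the striatal adenylyl cyclase, and Bcl11b (0.18 and -0.21). Gnal, the G protein that couples the D1 receptor to cyclase, was called lower by 0.58, but with the covariate its difference was -0.09 (limma adjusted p = 0.72), so it did not hold.

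Of 124 tested chromatin regulators 24 were higher and 36 lower, and 3 and 11 hold (11.3% beside 8.58% of all genes), while the median difference of the list was 0.01 beside 0.02 over all genes. Tet1 and Tet2, which oxidise methylcytosine, had 7.46 to 20.1 and 20.5 to 49.4 CPM in D1 against 21.5 to 65.1 and 39.0 to 122 in D2. Their log2 differences were -1.33 ± 0.13 and -1.37 ± 0.15, and Tet3, the remaining member of the family, named after its values were seen, was lower as well (-0.70 ± 0.12). Chd7, a remodeller, and Kdm6b, a histone demethylase, were both lower by 1.14. Zinc-finger factors had 53 higher and 136 lower calls among 369 (median -0.17 as deposited, -0.06 rescaled), of which 6 and 12 hold (4.88% beside 8.58% of all genes). Splicing factors had 28 higher and 35 lower calls among 128, and 9 and 3 hold (49.2% called and 9.38% holding, both near the 47.7% and 8.58% of all genes). Srsf5 had 78.2 to 132 CPM in D1 and 35.6 to 76.1 in D2 without overlap (0.92 ± 0.11), Rbm3, which responds to cold, was higher by 0.90 ± 0.19, and Rbfox1, a neuronal splicing factor, was lower by 0.83. Immediate early genes had 10 higher and 6 lower calls among 33, and 2 and 2 hold. That is 48.5% called and 12.1% holding, near the 47.7% and 8.58% of all genes. Egr1 had 296 to 577 CPM in D2 and 206 to 357 in D1 (-0.58 ± 0.10).

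Few calls of the large housekeeping classes hold. The called share was 25% for cytosolic ribosomal proteins, 28.4% for nuclear oxidative phosphorylation, 32.1% for mitochondrial ribosomal proteins and 46.7% for translation factors, beside 47.7% of all genes. Cytosolic ribosomal proteins had 19 higher and 2 lower calls among 84, with a median log2 difference of 0.21 as deposited and 0.32 rescaled, yet the median was -0.10 both in EM libraries alone and with the share as a covariate. In EM libraries 12 were higher and 17 lower. Only Rps4y2 holds, and it may share reads with near-identical copies. Nuclear genes of oxidative phosphorylation had 17 higher and 6 lower calls among 81, a median of 0.17 as deposited, -0.08 in EM libraries and -0.16 with the covariate, and none hold: Ndufv1, a complex I subunit, was higher by 0.87 as deposited but by 0.19 with the covariate (limma adjusted p = 0.63). Mitochondrial ribosomal proteins had 17 higher and 8 lower calls among 78, with a median of 0.08 as deposited, -0.08 in EM libraries and -0.04 with the covariate, and only Mrpl33, which was lower, holds. Translation factors had 21 higher and 14 lower calls among 75, with 2 and 1 holding and medians of 0.09, 0.04 and 0.03 in the same order. Proteasome genes had 16 higher and 3 lower calls among 44, and 1 and 2 hold, with medians of 0.20, 0.08 and 0.09. Chaperones (11 and 10 of 71, with 2 and 0 holding), genes of endoplasmic reticulum stress (1 and 3 of 23, none holding) and cholesterol synthesis (6 and 4 of 24, none holding) did not stand above the background of 8.58%.

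Of 19 tested glycolysis genes 11 were higher in D1 and 0 lower, and 2 hold (10.5% beside 8.58% of all genes). Their median difference was 0.44 as deposited, 0.56 rescaled, 0.23 in EM libraries and 0.12 with the covariate, beside 0.02, 0.13, -0.05 and 0.03 over all genes. Pfkp, a phosphofructokinase that sets the rate of the pathway, had 68.1 to 89.05 CPM in D1 and 44.7 to 67.8 in D2 without overlap (0.52 ± 0.07). Ldha, lactate dehydrogenase, had 118 to 222 CPM against 74.7 to 151 (0.48 ± 0.10). These 2 hold and the other 9 calls do not.

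**Figure D4:**
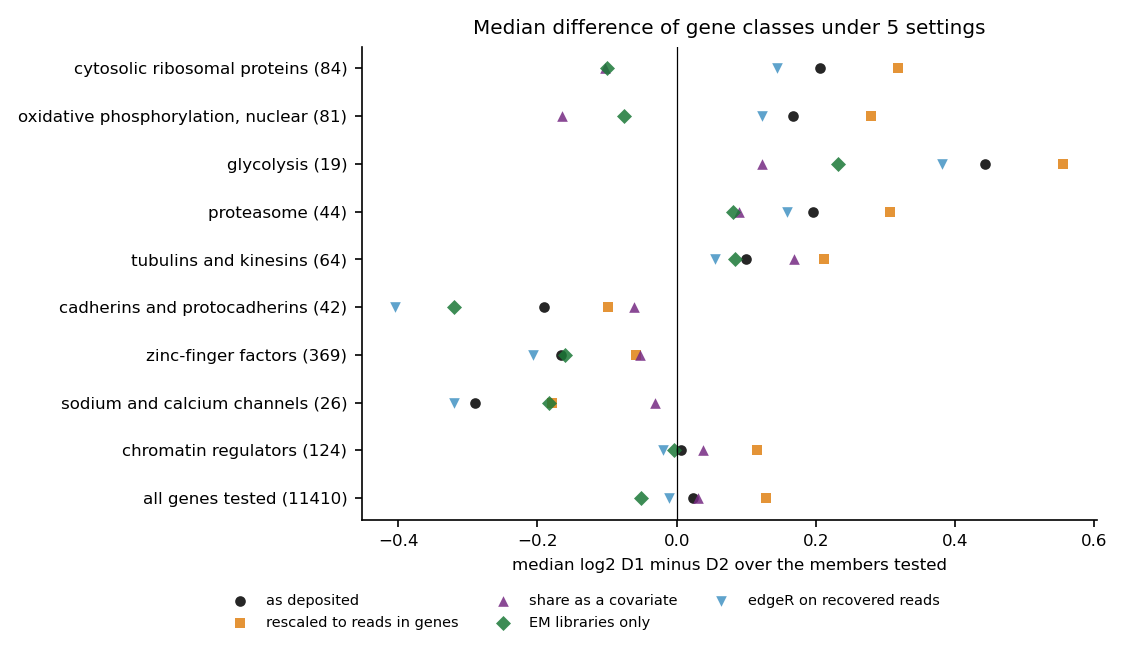
Median log2 D1 minus D2 difference over the tested members of 9 gene classes and over all genes (last row), as deposited and under 4 other treatments of the data. Ribosomal protein and nuclear oxidative phosphorylation genes change side, from 0.21 and 0.17 as deposited to -0.10 and -0.08 in EM libraries, while the glycolysis median goes from 0.44 to 0.23.

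RNAs encoded in mitochondria had lower summed levels in D1, with overlap between the groups. The summed level of the 13 listed genes was 6.34, 11.2 and 39.4 CPM in D1 (lowest, median, highest) and 31.3, 70.7 and 218 in D2, and mt-Co1, a complex IV subunit, was lower by 2.43 (log2 difference -2.43 ± 0.27). Of the 13, 5 passed the filter on low values and were called lower, but mt-Nd4 and mt-Cytb reached 1 CPM in only 11 of 15 D1 libraries against all 14 D2 libraries, so this count is partly fixed by the filter. Mitochondrial transcripts are not translated by the cytosolic ribosomes that carry the tag. Malat1 and Meg3, long noncoding RNAs known to stay mostly in the nucleus, were named after their values were seen: Malat1 averaged 150 CPM in D1 and 507 in D2 (-1.91 ± 0.23), and Meg3 averaged 48.9 and 129 (-1.499 ± 0.20). Of 221 tested genes that RefSeq types as long noncoding RNA 37 were higher and 55 lower, and 7 and 15 hold (9.95% beside 8.58% of all genes). Cdr1 was lower by 3.38 ± 0.32, at 50.2, 73.9 and 316 CPM in D1 against 224, 787 and 5290.2 in D2, the widest spread among the 12 largest lower genes. Its locus is known for an antisense circular RNA, and without counting by strand the reads of both cannot be told apart.

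Markers of other cells also differed between the groups. The 6 listed cortical glutamatergic markers had summed levels of 18.2, 66.2 and 115 CPM in D1 and 3.92, 11.3 and 84.7 in D2, the highest D2 value being replicate 2. Slc17a7, a vesicular glutamate transporter, had 5.32 to 48.2 CPM in D1 (log2 difference 2.48 ± 0.33), and the transcription factors Neurod6, Neurod2 and Tbr1 were higher by 1.66 to 2.08. Of the 6, 5 passed the filter on low values, and Neurod2 and Neurod6 reached 1 CPM in only 6 and 7 of 14 D2 libraries, so how many were called is no support. The 7 listed cholinergic interneuron markers summed to 1.62, 3.16 and 4.58 CPM in D1 and 8.40, 15.6 and 23.2 in D2. Of these 4 passed the filter on low values, Chat, Slc5a7 and Lhx8 mainly through their level in D2, so how many were called is no support. Chat, which makes acetylcholine, had 1.04 to 4.80 CPM in D2 and 0.0659 to 0.690 in D1. Oligodendrocyte markers summed to 65.5, 76.5 and 117 CPM in D1 and 86.5, 122 and 241 in D2. Of the 7 listed 5 were tested, and 4 of these were lower and hold. That is 80%, beside 4.58% of all genes, in a list of few genes. Mobp and Mal, of myelin, were lower by 1.35 and 1.48, and Mbp, a myelin protein gene, was not called (log2 difference -0.03). Olig1, of oligodendrocyte precursors, was lower by 0.69.

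Other marker lists moved less. None of the 3 tested astrocyte markers was called (summed level 40.0 to 92.6 CPM in D1 and 30.7 to 109 in D2), although Slc1a3, a glial glutamate transporter, was lower by 0.78 in EM libraries alone (limma adjusted p = 0.0096). Of 7 GABA interneuron markers Calb2 was higher and Lhx6 lower, and neither holds. Of the microglia and choroid lists 1 gene each could be tested and was not called, and no endothelial marker passed the filter. Dopaminergic markers had 2 lower calls among 3 and septal and pallidal markers 3 among 4, none of which hold. The part of these cells in the differences of other genes was not tested.

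The same contrast was set beside dorsal striatum with a test of the difference itself. Name codes were less balanced there. Dorsal D1 libraries were 11 EM, 3 BdP, 1 JAG and 0 OdP, and dorsal D2 libraries were 8 EM and 8 OdP. A difference between codes thus cannot be fully told apart from one between receptor types in the dorsal values. Over all genes the interaction, ventral minus dorsal difference, was called for 286 genes (2.51%), 76 positive and 210 negative. The split was 41 and 173 in EM libraries alone and 150 and 301 with the name code as a covariate. In dorsal striatum 26% of all genes were called, 13.3% higher and 12.7% lower in D1. Of the 979 holding genes, 719 (73.4%) were also called in the same direction in dorsal striatum, 259 were not called there and 1 was called the other way, and the interaction was called for 115 of them. The exception was Vat1l, named for this after its values were seen, which averaged 98.2 CPM in D1 and 78.98 in D2 ventrally but 51.0 and 102 dorsally (log2 differences 0.34 and -1.01, limma adjusted interaction p = 1.65e-11).

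Genes of D2 identity were less far apart ventrally. The interaction was called for 8 of the 10, all of them lower in D1 in both regions by less in the ventral one. Penk differed by -3.49 ventrally and -5.42 dorsally, Adora2a by -3.65 and -5.74, Gpr6 by -2.73 and -5.03, and Drd2 itself by -6.07 and -7.47 (limma adjusted interaction p of 1.65e-11, 1.11e-05, 9.03e-13 and 1.8e-05). Both sides moved: Penk averaged 128 CPM in ventral D1 libraries against 52.4 in dorsal ones, and 1397 in ventral D2 libraries against 2213 in dorsal ones. Among D1 identity genes the interaction was called for 3 of 10, Eya1, Ebf1 and Zfp521, each less far apart ventrally (-1.46, -1.74 and -0.74). In EM libraries alone the calls for Eya1 and Zfp521 were lost (limma adjusted p = 0.11 and 0.16), as were those for the D2 genes Grik3 and Plxdc1. By edgeR the interactions of Eya1 and Plxdc1 were not called either. For Pdyn the contrast was 4.22 in both regions (standard error of the interaction 0.295), although its D1 level averaged 75.8 CPM ventrally and 38.5 dorsally.

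A few differences were larger in the ventral striatum. Arhgap36 averaged 9.97 CPM in ventral D1 libraries and 0.263 in dorsal ones, and its D1 minus D2 difference was 2.87 ventrally and 0.43 dorsally (limma adjusted interaction p = 1.65e-11). By edgeR this interaction was not called (0.86, adjusted p = 0.63). Htr2a was lower in D1 by 1.30 ventrally and 0.38 dorsally, and its interaction was called (-0.92, limma adjusted p = 0.000114), but not when EM libraries were treated as ventral and dorsal pairs (-0.74, limma adjusted p = 0.055). Dgkk, Adamts17, a matrix protease, and Arpp19 also had larger negative differences ventrally (interactions of -1.27, -1.13 and -0.52), but edgeR did not call that of Dgkk, and those of Adamts17 and Arpp19 were not called in EM libraries alone. Striatal transcription factors had 16 interaction calls among 72 genes, 22.2% beside 2.51% of all genes. The list was drawn up with earlier results of these data known and includes identity genes such as Ebf1, so this is not independent evidence.

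**Figure D5:**
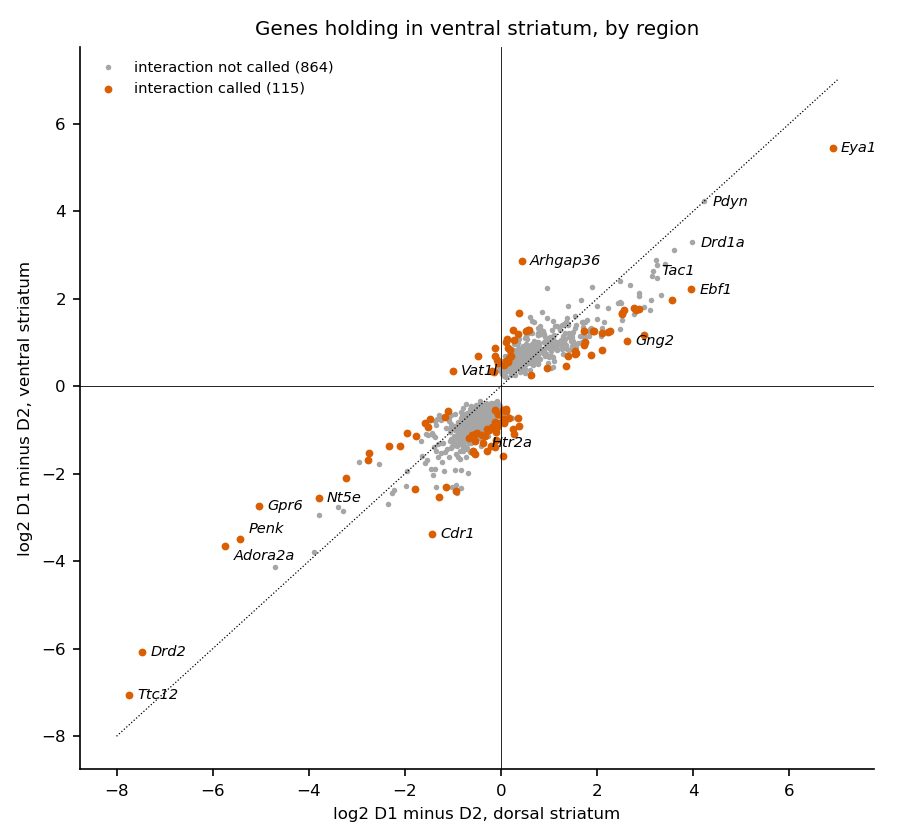
Log2 D1 minus D2 difference in ventral striatum against that in dorsal striatum for the 979 genes that hold ventrally; orange points are the 115 with a called interaction and the dotted line is equality. D2 genes such as Penk (-3.49 against -5.42) lie above the line at the lower left, and Arhgap36 (2.87 against 0.43) stands apart at the upper centre.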

How the data were processed

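Libraries held ribosome-bound polyA RNA, amplified with Ovation V2 and sequenced as 50-base pairs, per the labels' protocols. The authors deposited 1 table of CPM for 25899 genes, scaled to a total larger than the reads in listed genes. Trim Galore 0.4.2, cutadapt 1.9.1, FastQC, HISAT2 and the build GRCm38 are named in the submitters' processing notes. The counting program and annotation are not given in the sources used here. No unmatched columns were found (0).

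Groups came from the labels' region and cell type. Steps of the CPM values gave whole reads for 100% of values (tolerance 0.01 read), used for edgeR's quasi-likelihood test with TMM, which called 5370 genes. The main test was limma with a trend (limma 3.58.1, edgeR 4.0.16, R 4.3.3) on log2(CPM + 0.5), D1 minus D2, for genes with at least 1 CPM in at least 14 libraries, with Benjamini-Hochberg adjustment over 11410 genes and calls at an adjusted p under 0.05. The ± after a log2 difference is its standard error. Since small values are raised by the pseudocount, this scale understates the change of low genes. In 390 of the 11410 genes only a minority of the libraries of 1 group reached 1 CPM, so they passed the filter mainly through the other group. Such genes were 3 of 30 calcium sensors and buffers, 2 of 25 neurotrophic genes, 2 of 26 extracellular matrix genes and 2 of 10 D2 identity genes. The interaction was fitted over the 4 striatal groups, with libraries treated as independent. Shares of reads were compared with permutation tests (100000 resamples, or exact where a group had under 10 libraries) in Python 3.11.15. The limma and edgeR steps were tested on simulated data.

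The members and the 40 gene lists and 11 marker lists were chosen with earlier results of these data known. Named were the 12 largest holding differences either way (mean of 5 CPM or more in the higher group), up to 4 holding members of each list (called members where fewer than 2 hold), all tested identity and marker genes, neighbours of the receptor genes and Rpl10a. Exceptions are marked in the text, and some named genes are not reported here. Of the listed genes, 22998 (88.8%) matched RefSeq. No library pair within a group agreed within sampling noise (lowest chi-square per degree of freedom 8.24 over 196 pairs), so none was merged. Alternatives changed the pseudocount, filter, scaling, covariates, libraries, weights and tool.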

Additional observations from a re-analysis of the deposited data

Results flagged for a closer look

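For 35 of 186 named genes the D1 minus D2 difference itself differed between ventral and dorsal striatum (limma, interaction over the 4 striatal groups, adjusted p under 0.05). The values below are ventral minus dorsal on the log2 scale.

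Among genes lower in D1 in both regions, the gap was smaller ventrally for Gpr6 (2.30), Adora2a (2.09), Penk (1.93), Drd2 (1.40), Nt5e (1.25), Ptprm (1.21), Grik3 (1.13), Sp9 (1.10), Necab1 (0.95), Plxdc1 (0.90) and Ttc12 (0.70). It was larger ventrally for Cdr1 (-1.94), Htr2a (-0.92), Adk (-0.58) and Arpp19 (-0.52). Dgkk (-1.27) and Adamts17 (-1.13) were lower in D1 ventrally, and their dorsal differences of -0.13 and -0.10 were not called (limma adjusted p = 0.73 and 0.71).

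Among genes with a higher D1 level dorsally, the difference was smaller ventrally for Ebf1 (-1.74), Nr4a2 (-1.58), Gng2 (-1.58), Eya1 (-1.46), Dkk3 (-1.41), Lingo2 (-1.10), Stmn2 (-0.999), Pde1a (-0.99), Gnb4 (-0.99), Sstr2 (-0.89), Hrh2 (-0.79), Zfp521 (-0.74) and Dgkz (-0.64). Sst and Npy, peptides of GABA interneurons, had differences of 1.54 and 1.36 dorsally and of -0.08 and 0.13 ventrally (interactions of -1.63 and -1.23).

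The difference was more positive ventrally for Arhgap36 (2.44), Pam (0.54) and Eif4g1 (0.43).

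All 35 kept their sign, and 32 were called with the share covariate, 28 by edgeR and 21 in EM libraries alone. Those that edgeR did not call were Adk, Arhgap36, Dgkk, Eya1, Hrh2, Plxdc1 and Ttc12. Ttc12 had at most 0.36 CPM in ventral D1 libraries, below the pseudocount of 0.5 CPM, so its log2 difference depends on the pseudocount. In all of these settings 18 were called, Penk, Adora2a, Gpr6, Drd2, Ebf1, Htr2a, Sst and Npy among them.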

How the results depend on the processing

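Over the ventral libraries the count of genes at least 2-fold apart, 413, became 632 with a pseudocount of 0.1 CPM, 244 with a filter of at least 5 CPM and 244 with the share covariate. The covariate gave 1218 calls, and 1078 of those belong to the 5443 made without it, and in EM libraries alone with the covariate 746 were called, 237 of them at least 2-fold apart. There the differences of Ppp1r1b and Rgs9 turned to -0.063 and -0.019. The interaction was called for 451 genes with the name code as a covariate, against 286. The cause was not tested. Other settings stayed within 1.5 times of each of these counts.

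Of 168 named genes that were called, the covariate lost 17, EM libraries alone 5, EM libraries with the covariate 56 (and 2 more changed sign) and leaving out D2 replicate 2 lost 1, Trpc4 (-0.48, limma adjusted p = 0.070). Among genes called both in the main test and in any of the 6 alternatives that define holding, 0 changed sign. D1 and D2 come from different lines and were not paired. Ventral and dorsal libraries of a line may share animals, which the labels do not state. Taking EM libraries with consecutive name numbers and equal sex makeup as 19 pairs, an alternative chosen after seeing the data, the fit with the pair as a replicate block called the interaction for 285 genes, against 214 in EM libraries without it, and 201 were called in both. Of the 35 named interactions 27 were called and all 35 kept their sign, with Zfp521, Plxdc1, Pam, Htr2a, Adk, Dgkz, Eif4g1 and Hrh2 not called. Deviations of the assumed pairs correlated over 0.1 in 9 of 11 D1 and 5 of 8 D2 pairs, and 5 and 3 libraries correlated best with their own partner, so the pairing is not established. Genes that did not reach 1 CPM in at least 14 libraries were left out of the main test by the filter. Without the filter 19655 genes were tested and 5882 called.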
